A study of Homo sapiens with 6 samples.

Results

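The genes described here are 38 genes that act in the G2 and M phases of the cell cycle: mitotic kinases and cyclins, spindle checkpoint proteins, kinetochore proteins, the chromosomal passenger complex, kinesins, spindle-associated proteins, and proteins of cytokinesis and of mitotic chromosomes. They were chosen by name from the 58051 genes of a table of FPKM values, in which reads are scaled to gene length and library depth. Earlier results of these data were known when they were chosen. RNA was sequenced in 6 libraries from cells labelled NTera-2 (NT2), an embryonal carcinoma line derived from a testicular tumour. Going by their titles, the cells of 3 libraries had received mimics of piR-36249, a piRNA (a class of short RNAs studied mostly in the germline), and those of the other 3 a scramble control. The titles and the treatment field name mimics while the genotype field and the design text name a knockdown of the piRNA, so the groups follow the titles, and every difference below is mimic minus scramble. The labels do not tell whether the libraries of a group came from separate cultures, so p-values reflect no more than the spread among these libraries, which can be technical.

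Entry into mitosis is driven by CDK1 bound to B-type cyclins, with the Aurora and Polo-like kinases acting on centrosomes, chromosomes and the spindle. Kinetochores attach chromosomes to microtubules, the spindle checkpoint delays anaphase until attachment is complete, and the chromosomal passenger complex corrects wrong attachments and later acts in cytokinesis. Transcripts of these genes are known to be low in G1 and to rise towards mitosis in dividing cells, through promoters that often carry a cell cycle homology region (CHR) and CCAAT boxes, read by the DREAM and B-MYB complexes with FOXM1 and by NF-Y. In bulk RNA, fewer cells in G2 or mitosis and less RNA of these genes per cell cannot be told apart.

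The 4 promoters below are those of kinase, cyclin and phosphatase genes whose transcripts were lower with mimic, and they are shown because they carry both elements close to the start. Each is the 100 bases before a transcription start annotated by RefSeq on GRCh38.p14, written 5′ to 3′ on the gene's strand, with CHR (TTTGAA or TTTAAA) and CCAAT in capitals, read on either strand. PLK1 lies at chr16:23678789-23678888 on the plus strand, CCNB1 at chr5:69167050-69167149 on the plus strand, CCNB2 at chr15:59105046-59105145 on the plus strand and CDC25C at chr5:138331805-138331904 on the minus strand. CDC25C has several annotated starts, and only the one shown held a CHR in the 100 bases before it.
PLK1: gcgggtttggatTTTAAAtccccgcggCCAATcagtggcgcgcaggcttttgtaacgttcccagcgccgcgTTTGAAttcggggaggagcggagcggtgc
CCNB1: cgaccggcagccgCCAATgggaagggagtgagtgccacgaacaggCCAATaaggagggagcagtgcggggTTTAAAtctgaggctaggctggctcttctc
CCNB2: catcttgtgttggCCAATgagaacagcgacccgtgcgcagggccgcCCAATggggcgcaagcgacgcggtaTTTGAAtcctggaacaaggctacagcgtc
CDC25C: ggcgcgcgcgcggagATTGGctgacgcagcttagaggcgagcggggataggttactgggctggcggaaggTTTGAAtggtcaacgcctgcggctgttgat

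The 3 promoters that follow belong to genes whose transcripts did not pass the test, and are shown because they carry a CHR as well. They are CENPA at chr2:26785956-26786055, CKS2 at chr9:89311095-89311194 and KIF23 at chr15:69414249-69414348, each on the plus strand.
CENPA: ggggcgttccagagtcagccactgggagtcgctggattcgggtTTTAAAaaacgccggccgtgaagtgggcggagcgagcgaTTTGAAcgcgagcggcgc
CKS2: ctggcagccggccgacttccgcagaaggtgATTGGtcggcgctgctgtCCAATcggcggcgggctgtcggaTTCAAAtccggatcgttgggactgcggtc
KIF23: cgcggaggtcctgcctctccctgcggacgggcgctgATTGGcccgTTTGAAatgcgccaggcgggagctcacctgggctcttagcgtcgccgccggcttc

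RefSeq windows were found for 33 of the 38 genes, 39 windows in all since some genes have several annotated starts, and none were found for AURKA, BUB3, TPX2, TTK and BIRC5. In the last 100 bases before the start, 21 of the 39 windows (53.8%) held a CHR, against 8.24% of the 35116 promoter windows of all genes. In the 250 bases before the start the CHR count was 27 windows (69.2%), against 21.9% of all windows. A CCAAT stood in the last 100 bases of 25 windows (64.1%, against 18.1% of all) and in the 250 bases of 30 windows (76.9%, against 32.0%). TTTAAA reads the same on both strands, and a CHR and a CCAAT share bases in the windows of CDCA8 and MKI67. The 28 CHR matches in the last 100 bases had a median first base of -29, counted from the start. Of the genes with a window, 16 of 26 that passed the test and 5 of 7 that did not held a CHR in the last 100 bases. These are matches of letters, not shown to be bound sites.

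**Figure D1:**
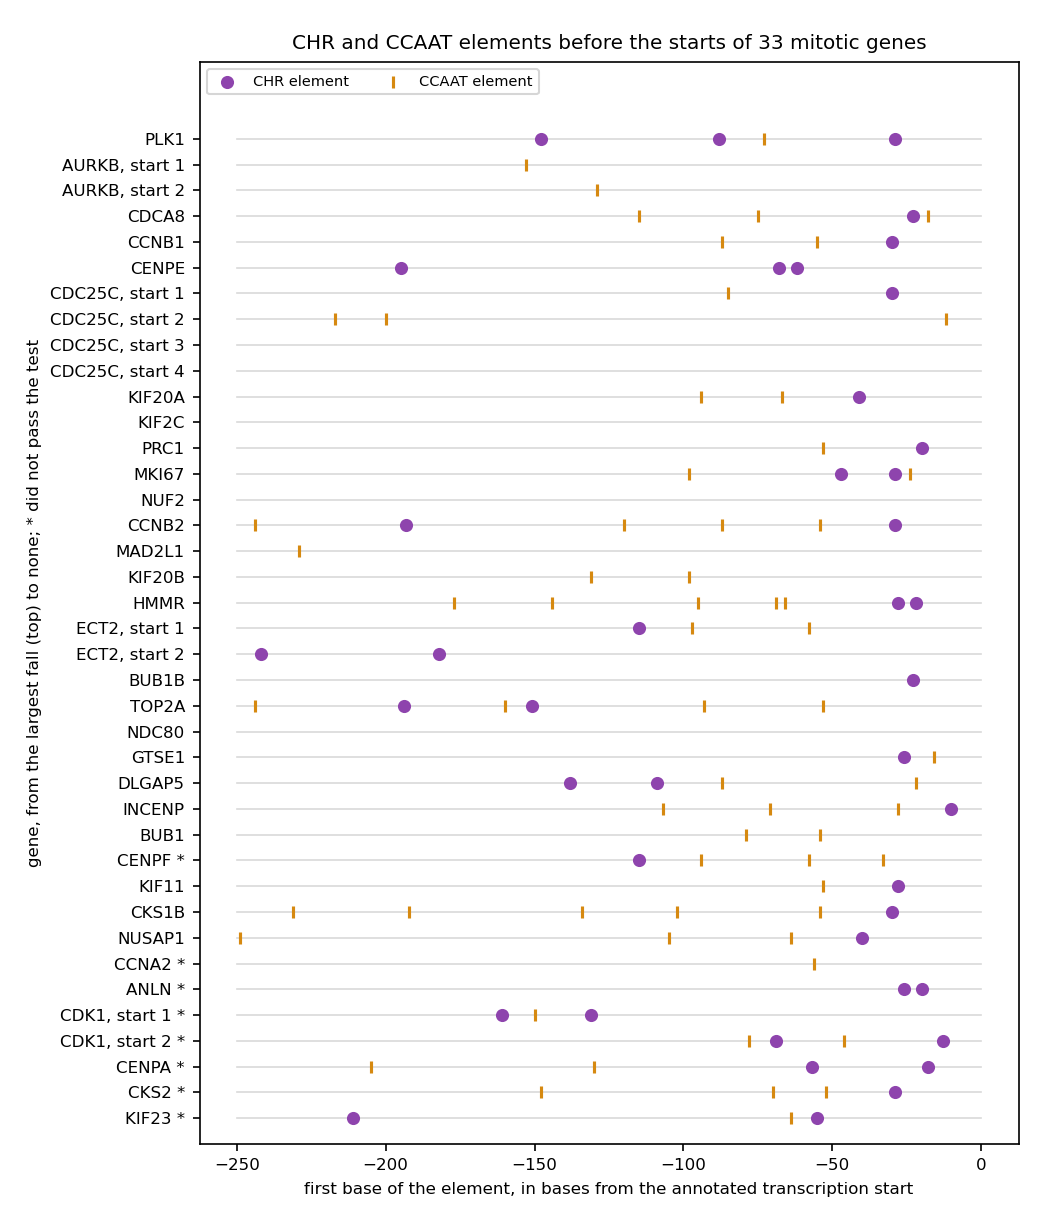
Position of each CHR (circles) and CCAAT (bars) in the 250 bases before each of the 39 annotated starts of 33 mitotic genes, in bases from the start; genes are ordered from the largest fall (top), and asterisks mark the 7 genes that did not pass the test. The CHR matches in the last 100 bases have a median first base of -29 and occur in genes with and without an asterisk.

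Depth was between 48.0 and 62.7 M reads per library, and 10 reads on 1 kb of exon were worth between 0.159 and 0.208 FPKM. Every library had between 11138 and 11211 genes above 1 FPKM. Of 15 markers of pluripotent and embryonal carcinoma cells, 6 were listed at 0 in every library (NANOG, SOX2, TDGF1, L1TD1, SALL4 and UTF1) and 5 were above 1 FPKM in all of them. The rest, POU5F1, LIN28A, DPPA4 and ZFP42, had means under 0.5 FPKM, with POU5F1 at 0.0529 FPKM. The labelled cell type thus lacked defining markers. Of 12 endothelial markers, 9 were above 1 FPKM in every library and 3 (KDR, VWF and CLDN5) had means under 0.5 FPKM. Of the 9 tested, 8 were called higher with mimic, against 18.7% of all tested genes. The sum over the list was 1321 to 1424 FPKM with mimic and 995.1 to 1087 with scramble. The summed pluripotency list was 753.8 to 776.7 FPKM with mimic and 561.5 to 613.4 with scramble. Most of that sum came from CD9 and PODXL, with means of 361.9 and 296.7 FPKM over the 6 libraries. The other tested genes were LIN28B (12.5 FPKM), DNMT3B (4.14) and TERF1 (1.81). Of these 5 genes 4 were called higher, all but TERF1, against 18.7% of all tested genes. Of the other lists, 1 of 8 fibroblast markers, 0 of 8 blood markers and 2 of 6 epithelial markers were above 1 FPKM in every library. The summed epithelial list overlapped between groups, at 302.5 to 318.0 FPKM with mimic and 293.3 to 323.3 with scramble. Its 2 tested genes went in opposite directions. KRT8 was called higher (log2 fold change 0.20), while KRT18 was not called (-0.12), although each of its mimic libraries was below every scramble library. The summed fibroblast list was 6.57 to 7.09 FPKM with mimic and 4.68 to 5.01 with scramble. THY1 made up most of it, with means of 5.41 FPKM with mimic and 4.17 with scramble, and the other 7 genes had means under 0.5 FPKM. The summed blood list, whose 8 genes all had means under 0.5 FPKM, was 0.205 to 0.330 FPKM with mimic and 0.0933 to 0.145 with scramble. The sums of the endothelial, pluripotency, fibroblast and blood lists thus did not overlap between groups. Their part in the results on mitotic genes was not tested.

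The comparison asked how transcripts of the mitotic machinery differed between cells given the mimic and cells given the scramble. Of the 38 genes, all of which were above the minimum mean of 0.5 FPKM, 30 were lower with mimic, 0 were higher and 8 did not pass the test (limma on log2(FPKM + 1), Benjamini-Hochberg adjusted p at most 0.05 over all 12912 tested genes). Among all tested genes 16.8% were called lower and 18.7% higher. At an unadjusted p under 0.05, 32 of the 38 were lower and 0 higher, against 22.1% and 23.8% of all tested genes. A weighted model on recovered reads (voom) also called 30 lower and 0 higher, against 18.2% and 21.0% of the genes it tested. The median log2 fold change of the 38 was -0.31, with a range from -0.71 (BIRC5) to 0.00 (KIF23), while the median over all tested genes was 0.0025. None of the 38 was in the authors' deposited table of 401 genes, in which the smallest absolute log2 fold change is 1.0005. Summed over the 38 genes, the level was 857.1, 886.6 and 857.7 FPKM in mimic replicates 1 to 3 and 1078, 1092 and 1103 FPKM in scramble replicates 1 to 3. In 31 of the 38 genes every mimic library was below every scramble library, against 23.2% of all tested genes. Fold changes are on the log2(FPKM + 1) scale, which understates changes of genes with low values, so ratios of mean FPKM are given for the genes that changed most.

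**Figure D2:**
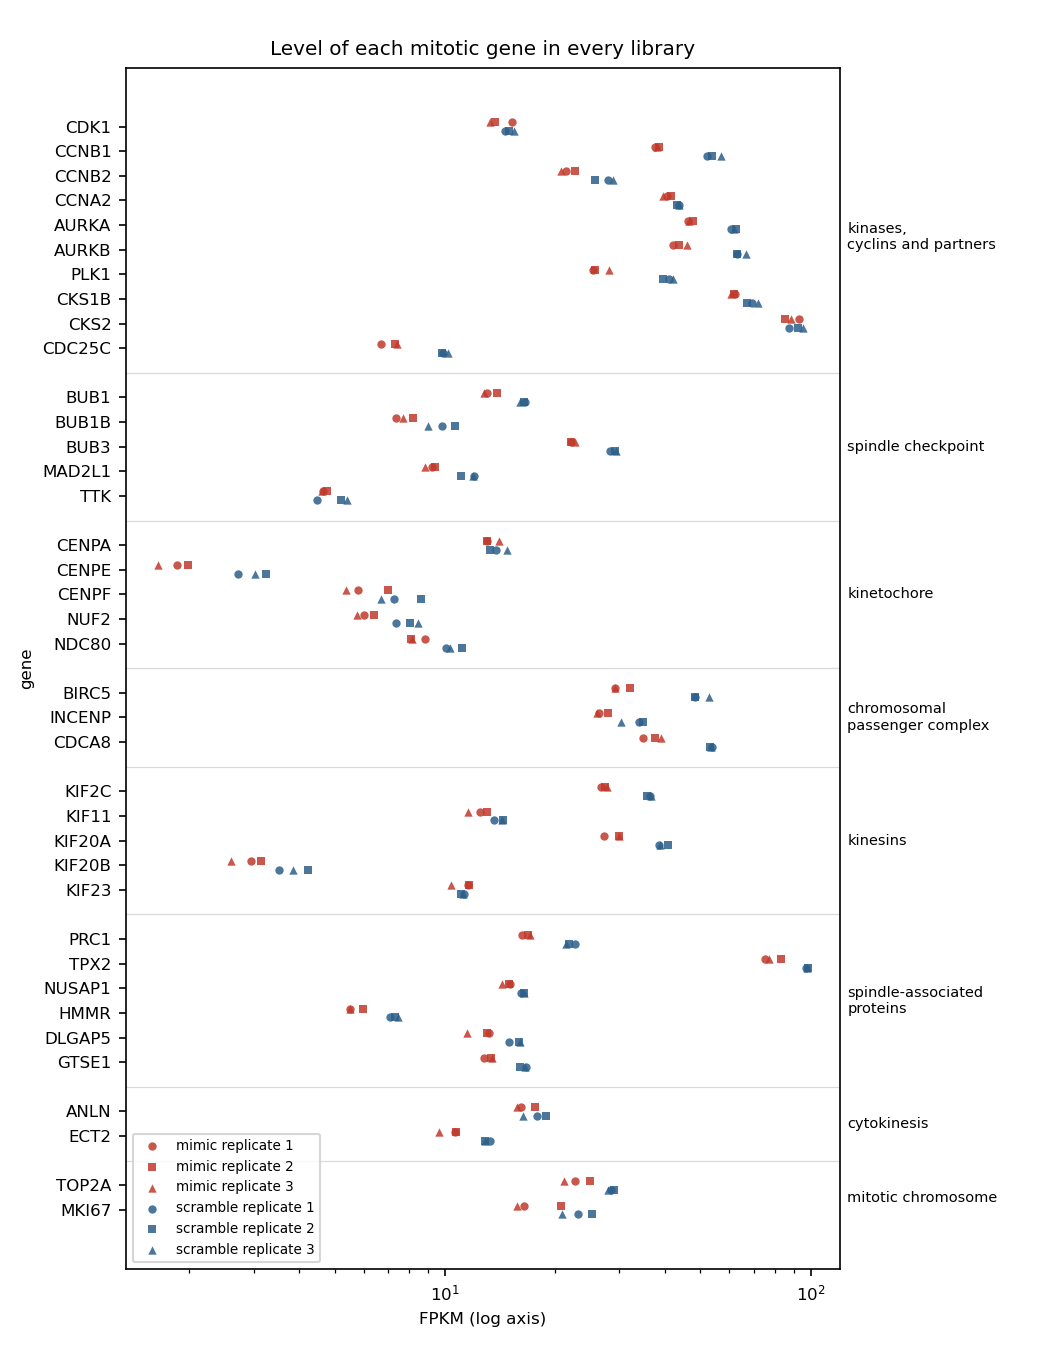
FPKM (log axis) of each of the 38 mitotic genes, by role, in the 3 mimic libraries (red) and the 3 scramble libraries (blue), with a symbol for each replicate. In 31 genes the red symbols all lie to the left of the blue ones; for CDK1, CKS2, TTK, CENPA, CENPF, KIF23 and ANLN they overlap.

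Kinases, cyclins and their partners made up 10 of the genes, of which 7 were lower with mimic, with a median log2 fold change of -0.36. PLK1, the Polo-like kinase of mitotic entry and spindle assembly (chr16:23677656-23690367, GRCh38), was at 25.4, 25.8 and 28.2 FPKM in the mimic libraries and at 41.1, 39.5 and 42.1 FPKM in the scramble libraries. The groups were far apart, and the mimic mean was 0.646 of the scramble mean (log2 fold change -0.61 ± 0.050 SE, adjusted p 0.000122). An antisense gene shares 11.6% of the PLK1 exon bases, but its mean was 0.0758 FPKM. AURKB, the Aurora kinase of the passenger complex (chr17:8204733-8210600), was at 42.1, 43.6 and 46.0 FPKM with mimic and at 62.8, 63.1 and 66.7 FPKM with scramble. Its mean ratio was 0.684 (log2 fold change -0.54 ± 0.045 SE, adjusted p 0.000142), again with no overlap. AURKA, the Aurora kinase of centrosomes and spindle poles, was at 46.1, 47.6 and 46.5 FPKM with mimic and 60.5, 62.3 and 61.9 FPKM with scramble, a log2 fold change of -0.39.

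CCNB1, the cyclin that activates CDK1 at mitotic entry (chr5:69167010-69178245), was at 37.6, 38.4 and 37.9 FPKM with mimic and at 52.1, 53.7 and 57.0 FPKM with scramble. It fell to 0.700 of the scramble mean (log2 fold change -0.50 ± 0.042 SE, adjusted p 0.000140). CCNB2, the other mitotic B-type cyclin, was 21.6 ± 0.978 FPKM with mimic and 27.5 ± 1.59 with scramble (mean ± SD, n = 3, as below; log2 fold change -0.33). CDC25C, the phosphatase that removes the inhibitory phosphates from CDK1, was at 6.70, 7.31 and 7.41 FPKM with mimic and 9.91, 9.79 and 10.2 FPKM with scramble (log2 fold change -0.43). FAM53C lies on the other strand over 8.78% of its exon bases, and whether the counting used strand is not given in the sources used here. CKS1B, a small subunit of CDK complexes, fell by 0.17 on the log2 scale, from 69.4 ± 2.51 to 61.5 ± 0.672 FPKM. Its processed pseudogenes CKS1BP3 and CKS1BP2 reached 7.89 and 2.93 FPKM, so its reads could be split between near-identical copies.

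The kinase at the centre of this group did not pass the test. CDK1 was at 15.3, 13.7 and 13.3 FPKM with mimic and at 14.6, 15.0 and 15.4 FPKM with scramble, where mimic replicate 1 lay within the scramble range (log2 fold change -0.09 ± 0.056 SE, adjusted p 0.259). CKS2, the paralog of CKS1B and the gene with the highest level of the 38, overlapped between groups at 88.8 ± 3.76 FPKM with mimic and 91.6 ± 4.198 with scramble (log2 fold change -0.04, adjusted p 0.530). CCNA2, the cyclin of S phase and G2, was at 40.4, 41.6 and 39.4 FPKM with mimic and 43.8, 43.1 and 43.7 FPKM with scramble. Its groups did not overlap, yet the difference was small (log2 fold change -0.10 ± 0.036 SE) and its adjusted p was 0.0602. EXOSC9 overlaps 9.08% of the CCNA2 exon bases on the other strand.

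The chromosomal passenger complex held the largest fall. BIRC5, which encodes survivin, the subunit that brings the complex to centromeres (chr17:78214186-78225636), was at 29.2, 32.0 and 29.1 FPKM with mimic and at 48.4, 48.2 and 52.9 FPKM with scramble. The highest mimic library was well below the lowest scramble library, and the mean fell to 0.604 of the scramble mean (log2 fold change -0.71 ± 0.055 SE, adjusted p 9.63e-05). CDCA8, which encodes borealin (chr1:37692418-37709719), was at 34.8, 37.6 and 39.0 FPKM with mimic and at 53.8, 53.0 and 53.5 FPKM with scramble (log2 fold change -0.52 ± 0.047 SE, adjusted p 0.000195). INCENP, the scaffold that binds Aurora B, fell less, from 33.05 ± 2.34 to 26.8 ± 0.967 FPKM (log2 fold change -0.29, adjusted p 0.00616). With AURKB above, all 4 genes of the complex were lower with mimic.

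Among the 5 spindle checkpoint genes 4 were lower with mimic, and their falls lay close together, with a median over the 5 of -0.31. BUB3, which docks BUB1 and BUBR1 at kinetochores, was at 22.1, 22.1 and 22.7 FPKM with mimic and at 28.2, 29.2 and 29.3 FPKM with scramble (log2 fold change -0.36 ± 0.036 SE). MAD2L1, the MAD2 protein that inhibits the anaphase-promoting complex, went from 11.7 ± 0.497 to 9.16 ± 0.315 FPKM (log2 fold change -0.32). BUB1B, which encodes BUBR1, went from 9.82 ± 0.830 to 7.75 ± 0.414 FPKM (log2 fold change -0.31). BUB1, a kinase of the kinetochore and centromere, went from 16.4 ± 0.267 to 13.2 ± 0.574 FPKM (log2 fold change -0.29). In each of these 4 genes the groups did not overlap. TTK, the MPS1 kinase that starts checkpoint signalling, was at 4.64, 4.77 and 4.61 FPKM with mimic and at 4.48, 5.19 and 5.39 FPKM with scramble. Scramble replicate 1 was the lowest of the 6 libraries, and the gene did not pass the test (log2 fold change -0.08, adjusted p 0.357).

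Of the 5 kinetochore genes 3 were lower with mimic and the median log2 fold change was -0.30. CENPE, a kinesin that carries chromosomes to the spindle equator, had the lowest level of the 38 and was at 1.86, 1.98 and 1.65 FPKM with mimic and at 2.72, 3.24 and 3.02 FPKM with scramble. Its mean ratio was 0.611, close to that of BIRC5, while its log2 fold change with 1 FPKM added was -0.50 ± 0.072 SE (adjusted p 0.00164). NUF2 and NDC80, partners in the complex that binds microtubules, fell by 0.34 and 0.30 on the log2 scale, to 6.07 ± 0.320 and 8.35 ± 0.426 FPKM. CENPA, the histone H3 variant of centromeres, was 13.4 ± 0.605 FPKM with mimic and 13.9 ± 0.761 with scramble and did not pass the test (log2 fold change -0.05, adjusted p 0.476). SLC35F6 shares 6.96% of the CENPA exon bases on the same strand.

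CENPF, a large protein of the outer kinetochore, did not pass the test either, although its difference was larger than those of KIF11, CKS1B and NUSAP1, which did. It was at 5.79, 6.99 and 5.38 FPKM with mimic and at 7.26, 8.58 and 6.71 FPKM with scramble (log2 fold change -0.27 ± 0.10 SE, adjusted p 0.0774). Replicate 2 was the highest library in both groups, 0.19 and 0.18 above its group's mean on the log2 scale. Without mimic replicate 2, the highest mimic library, the log2 fold change was -0.37 and the adjusted p 0.0274. With other single libraries left out the log2 fold change was as small as -0.18 and the adjusted p as high as 0.219. The adjusted p was 0.0228 on recovered reads and 0.126 with FPKM scaled to the same sum in every library (TPM).

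The spread of MKI67, which encodes the Ki-67 coat protein of mitotic chromosomes, had the same shape. It was at 16.5, 20.7 and 15.8 FPKM with mimic and at 23.2, 25.3 and 20.9 FPKM with scramble, with replicate 2 highest in both groups. The groups just missed overlapping, and the gene passed (log2 fold change -0.37 ± 0.11 SE, adjusted p 0.0276). Left out in turn, mimic replicate 1, mimic replicate 3, scramble replicate 1 and scramble replicate 2 each took the adjusted p over 0.05, to 0.0822, 0.0905, 0.0701 and 0.0816. Both genes have long exons, 11690 bases in CENPF and 12807 in MKI67, and replicate 2 was above its group's mean in the 3218 tested genes with the longest exons (median 0.033 with mimic and 0.034 with scramble on the log2 scale) and below it in the 3218 with the shortest (-0.038 and -0.019). The part of transcript length in these results was not tested. TOP2A, the topoisomerase that untangles sister chromatids, went from 28.4 ± 0.465 to 22.9 ± 1.92 FPKM (log2 fold change -0.30, adjusted p 0.00609).

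Of the 5 kinesins 4 were lower with mimic. KIF20A, a kinesin of the central spindle, was at 27.2, 29.9 and 29.9 FPKM with mimic and at 38.5, 40.6 and 38.8 FPKM with scramble (log2 fold change -0.43 ± 0.049 SE, adjusted p 0.000526). BRD8 and CDC23, with means of 13.6 and 17.5 FPKM, overlap 3.3% and 1.7% of the KIF20A exon bases on the other strand. KIF2C, which takes apart microtubules at centromeres, was at 26.6, 27.4 and 27.8 FPKM with mimic and at 36.4, 35.8 and 36.6 FPKM with scramble (log2 fold change -0.40 ± 0.035 SE, adjusted p 0.000177). Both kinesins showed groups well apart, at about 0.74 and 0.75 of the scramble level. KIF20B was lower as well, at 2.90 ± 0.272 against 3.87 ± 0.344 FPKM (log2 fold change -0.32). KIF11, the motor that separates spindle poles, fell by 0.18 on the log2 scale, from 14.1 ± 0.422 to 12.4 ± 0.707 FPKM (adjusted p 0.0265). That call was lost without mimic replicate 1, mimic replicate 3, scramble replicate 2 or scramble replicate 3, with adjusted p-values of 0.0567, 0.083, 0.0789 and 0.0646. KIF23, the centralspindlin motor of cytokinesis, had nearly equal means, at 11.2 ± 0.717 FPKM with mimic and 11.2 ± 0.0890 with scramble (log2 fold change 0.00 ± 0.051 SE, adjusted p 0.983).

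The 6 spindle-associated genes were all called lower with mimic, with a median log2 fold change of -0.31. TPX2, the activator of Aurora A on spindle microtubules and second in level of the 38, was at 75.3, 82.9 and 76.8 FPKM with mimic and at 96.9, 98.1 and 97.5 FPKM with scramble (log2 fold change -0.31 ± 0.044 SE, adjusted p 0.0014). PRC1, which bundles microtubules of the central spindle, went from 22.01 ± 0.663 to 16.7 ± 0.452 FPKM (log2 fold change -0.38). HMMR, DLGAP5 and GTSE1, which act on spindle microtubules, fell by 0.31, 0.30 and 0.30 on the log2 scale. NUSAP1, a microtubule-binding protein, had the smallest called fall, from 16.3 ± 0.153 to 14.8 ± 0.443 FPKM (log2 fold change -0.13, adjusted p 0.0309). Its adjusted p was between 0.0519 and 0.105 without mimic replicate 2, mimic replicate 3, scramble replicate 1, scramble replicate 2 or scramble replicate 3. NUSAP1 shares 62.2% and PRC1 57.6% of its exon bases with a read-through gene on the same strand that has no value in the table, so both values are uncertain.

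Of the 2 genes grouped under cytokinesis, ECT2, the exchange factor that activates RhoA at the cleavage site, was lower with mimic, at 10.6, 10.7 and 9.66 FPKM against 13.3, 12.9 and 12.8 FPKM with scramble (log2 fold change -0.31 ± 0.049 SE, adjusted p 0.00257). ANLN, which encodes the contractile ring scaffold anillin, was 16.5 ± 0.987 FPKM with mimic and 17.7 ± 1.32 with scramble and did not pass (log2 fold change -0.09, adjusted p 0.288). Across the 38 genes the log2 fold change had a Spearman correlation of -0.22 with the mean log2 level and 0.02 with exon length. These correlations are descriptions over 38 genes measured in the same 6 libraries.

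**Figure D3:**
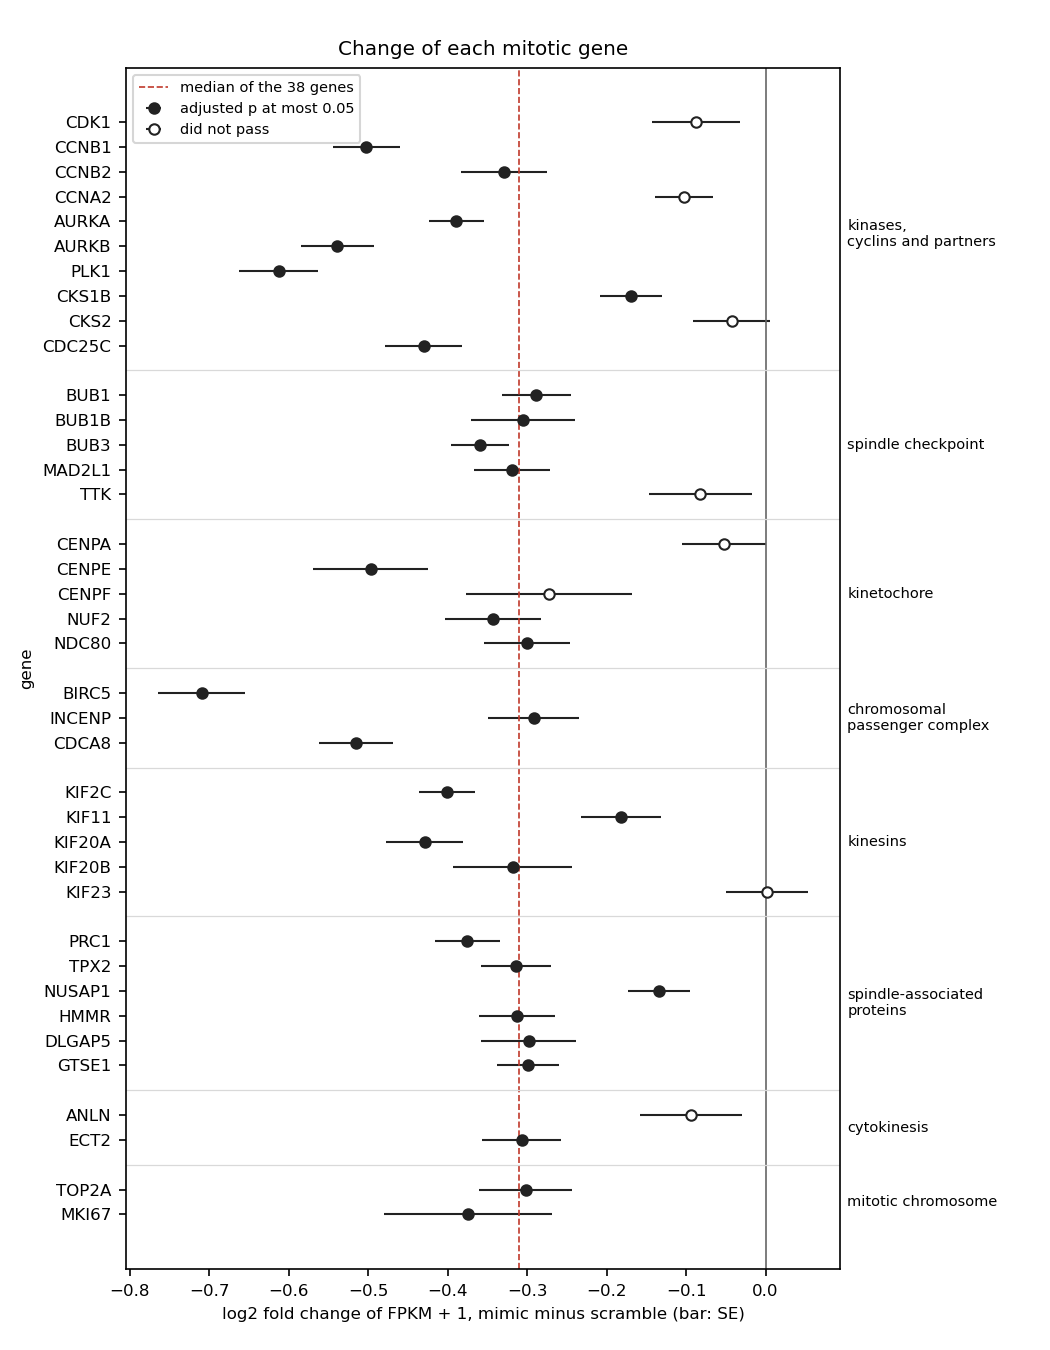
Log2 fold change of FPKM + 1 (mimic minus scramble) for each of the 38 genes with its SE as a bar, by role; filled points passed the test and open points did not. Values run from -0.71 (BIRC5) to 0.00 (KIF23), and the dashed line marks the median of -0.31.

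To set partners side by side, the log2 ratio of 7 pairs of paralogs or complex partners was compared between groups with a two-sided exact permutation test, which with 3 libraries against 3 cannot give a p under 0.1. The log2 ratio of CCNB1 to CCNB2 was 0.79, 0.73 and 0.84 with mimic and 0.88, 1.04 and 0.96 with scramble, a difference of -0.17 (exact p 0.1, adjusted over the 7 pairs 0.233). The ratio of AURKA to AURKB was 0.13, 0.13 and 0.02 with mimic and -0.05, -0.02 and -0.11 with scramble, a difference of 0.15 (exact p 0.1, adjusted 0.233). The ratio of CKS1B to CKS2 differed by -0.13 (exact p 0.1, adjusted 0.233), where mimic replicate 2 and scramble replicate 2 were nearly equal at -0.46 and -0.45. These 3 pairs had no overlap between groups. Groups overlapped in the other 4 pairs, KIF20A to KIF20B (difference -0.11, exact p 0.3), BUB3 to BUB1B (-0.05, exact p 0.6), NUF2 to NDC80 (-0.04, exact p 0.5) and BUB1 to BUB1B (0.02, exact p 1).

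**Figure D4:**
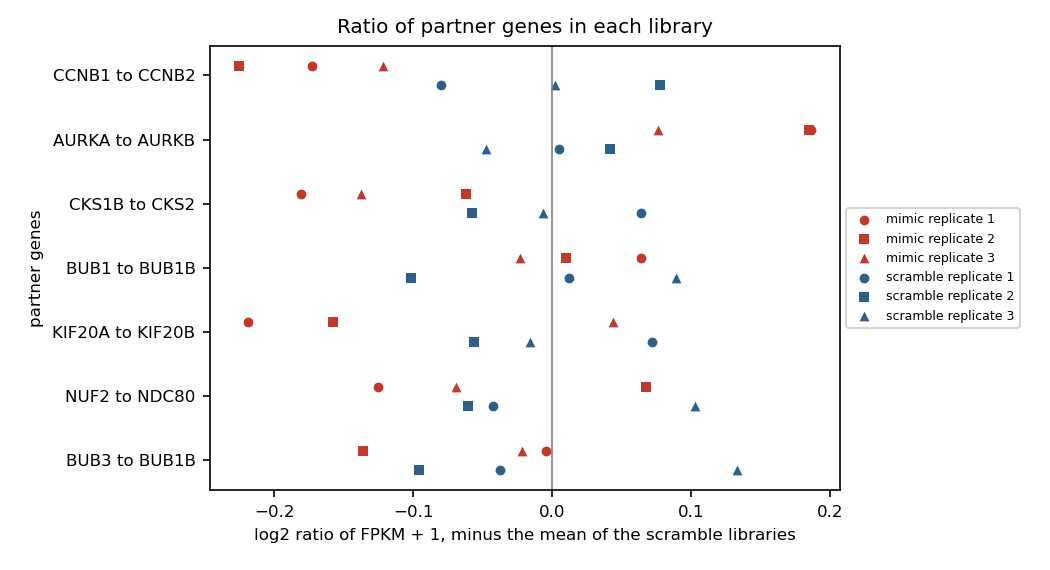
Log2 ratio of FPKM + 1 of 7 partner pairs in each library, shown as the difference from the mean of the scramble libraries (mimic red, scramble blue, a symbol for each replicate). The groups are apart for CCNB1 to CCNB2, AURKA to AURKB and, narrowly, CKS1B to CKS2, and overlap in the other 4 pairs.

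Other genes of the mitotic machinery were read as lists, to be set beside the 16.8% lower and 18.7% higher among all tested genes. Of 8 further mitotic kinesins 7 were lower with mimic and 0 higher (0 at an unadjusted p under 0.05 and 0 by voom), with a median log2 fold change of -0.34. KIF15, which can act beside KIF11 at the spindle, was at 1.95, 2.14 and 1.98 FPKM with mimic and at 4.24, 4.66 and 3.90 FPKM with scramble, a ratio of 0.473, and is in the authors' deposited table with a log2 fold change of -1.09. The deposited test statistic has the opposite sign of the fold change in all 401 genes of that table, while its fold changes point the same way as the mean FPKM, mimic against scramble, in each of the 401. KIF18B (log2 fold change -0.50) and KIF22 (-0.32) were lower as well. Of 15 tested subunits of transport kinesins, which carry cargo along microtubules, 1 was lower and 6 were higher, with a median of 0.10. KIF3B and KIF3C, motors of kinesin-2, were higher by 0.45 and 0.38 on the log2 scale, and KIF3A, their partner motor, was lower at -0.28. The count of higher transport kinesins was 2 without mimic replicate 1 or scramble replicate 1 and 3 without any other single library, and KIF3A lost its call without mimic replicate 3, scramble replicate 1 or scramble replicate 2 (adjusted p up to 0.0625).

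Of 35 tested further centromere and kinetochore genes 14 were lower and 0 higher (2 higher at an unadjusted p under 0.05, 0 by voom), with a median of -0.10. The shares over all tested genes were 16.8% lower and 18.7% higher, and 23.8% higher at an unadjusted p under 0.05. HJURP, the chaperone that loads CENPA, went from 30.0 ± 1.19 to 21.4 ± 0.477 FPKM (log2 fold change -0.46), while CENPA did not pass the test; the difference between them was not tested. CENPN (-0.51) and DSN1 (-0.40) were also lower. Without mimic replicate 3 or scramble replicate 3, 1 gene of this list was called higher. Of 21 further checkpoint and mitotic entry regulators 11 were lower and 2 higher, with a median of -0.16. PTTG1, the securin that restrains separase, was at 20.2, 19.96 and 19.9 FPKM with mimic and at 29.9, 30.6 and 32.3 FPKM with scramble (log2 fold change -0.60). CDC25B, a phosphatase that starts CDK1 activation, fell by 0.41 on the log2 scale. NEK9, a kinase upstream of other NEK kinases in centrosome separation, was higher, at 10.5 ± 0.705 against 7.08 ± 0.192 FPKM (log2 fold change 0.51). Without scramble replicate 1 the count of lower genes in this list was 7.

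Of 29 tested other spindle and midbody genes 14 were lower and 0 higher (0 at an unadjusted p under 0.05 and 0 by voom), with a median of -0.18. RACGAP1, the partner of KIF23 in centralspindlin, went from 30.1 ± 0.479 to 21.3 ± 0.964 FPKM (log2 fold change -0.48), and PSRC1 (-0.66) and PIMREG (-0.56) were lower too. For comparison, of 30 genes of DNA replication, which act before mitosis, 20 were lower and 0 higher (0 at an unadjusted p under 0.05 and 0 by voom), with a median of -0.18. Of those 20 genes, 14 kept their call whichever single library was left out. MCM7 (-0.52), CDC45 (-0.41) and MCM6 (-0.37), parts of the replicative helicase, had the smallest p-values among them. All tested genes had shares of 16.8% lower and 18.7% higher. The counts of these lists are descriptions, and differences between lists were not tested.

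**Figure D5:**
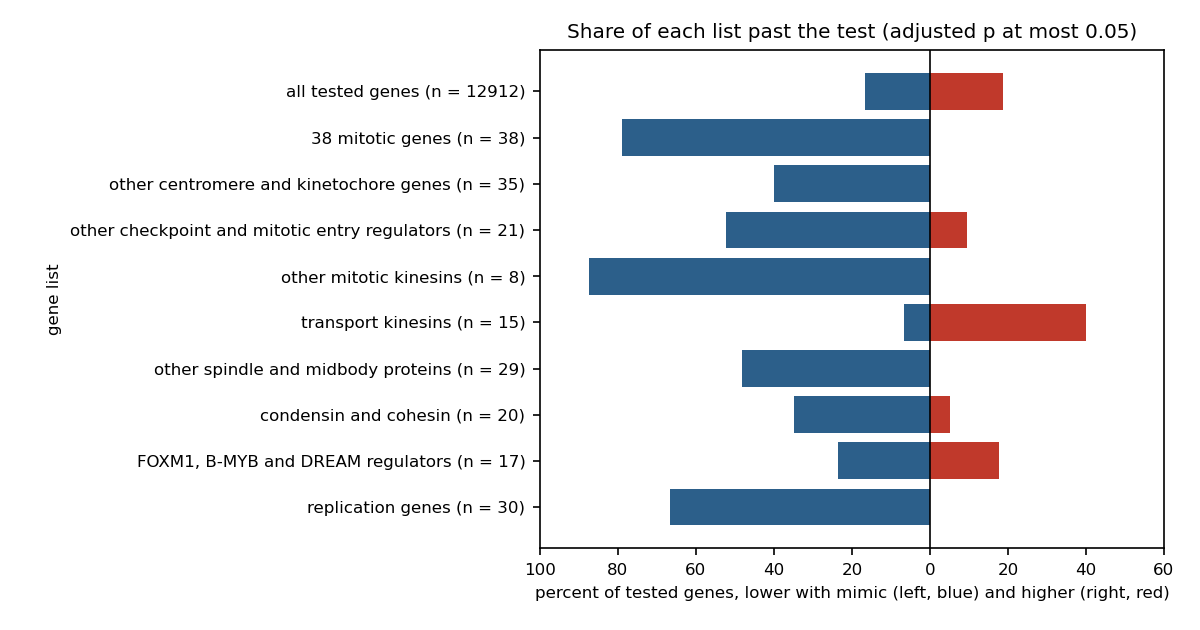
Percent of tested genes that were lower (left, blue) or higher (right, red) with mimic, for all tested genes, the 38 mitotic genes and the related lists, with the number tested in brackets. The 38 genes have 30 lower and 0 higher, the transport kinesins 1 lower and 6 higher, and all tested genes 16.8% lower and 18.7% higher.

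Of 17 tested regulators from the list of FOXM1, B-MYB, DREAM and NF-Y, 4 were lower and 3 higher, shares near the 16.8% and 18.7% of all tested genes, with a median of -0.02. NFYA, a subunit of the CCAAT-binding factor NF-Y, was at 5.79, 6.31 and 5.62 FPKM with mimic and at 9.26, 8.99 and 8.06 FPKM with scramble (log2 fold change -0.50 ± 0.063 SE, adjusted p 0.00086). The other NF-Y subunits, NFYB and NFYC, were not called (log2 fold changes 0.11 and 0.05, adjusted p 0.184 and 0.497). RBBP4, a subunit of DREAM, was lower (-0.21) and TFDP2, a partner of E2F factors, higher (0.23). RBBP4 lost its call without scramble replicate 1 (adjusted p 0.0521), and TFDP2 without mimic replicate 1, mimic replicate 2 or scramble replicate 1 (up to 0.0643). The next 3 genes were chosen after their values were seen. FOXM1 was at 30.5, 33.9 and 35.0 FPKM with mimic and at 38.3, 37.7 and 37.4 FPKM with scramble (log2 fold change -0.19 ± 0.053 SE, adjusted p 0.0284). Its call was lost without mimic replicate 1 or any 1 of the scramble libraries (adjusted p up to 0.0859). MYBL2, which encodes B-MYB, was 60.7 ± 0.984 FPKM with mimic and 61.4 ± 2.76 with scramble and did not pass (log2 fold change -0.02, adjusted p 0.784). CDKN1A, the CDK inhibitor p21, was higher, at 89.6, 89.5 and 97.2 FPKM against 82.9, 82.7 and 81.5 FPKM (log2 fold change 0.16 ± 0.043 SE, adjusted p 0.0237). That call was lost without mimic replicate 3 or any 1 of the scramble libraries (adjusted p up to 0.0731). With single libraries left out, the counts of this list were as low as 1 lower and 0 higher, both without scramble replicate 1; 2 were lower without mimic replicate 1, and 1 was higher without mimic replicate 1, mimic replicate 2 or scramble replicate 3.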

How the data were processed

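Per the submitters' processing notes, the authors used DESeq2 1.26.0, featureCounts 2.0.1, HISAT2 2.1.0 and Trimmomatic 0.39 on GRCh38. Which annotation was counted, with or without strand, and how FPKM was computed is not given in the sources used here. FPKM values were deposited for 58051 genes in 6 libraries (0 columns of other samples) and a filtered comparison table of 401 genes. Per the file headers, that deposited table holds mean counts (a signal), log2 fold changes, their errors, a score and p-values; its log2 fold changes and adjusted p-values were used, and the signs of its log2 fold changes and scores were compared. Genes were named with GENCODE 29 (57447 matched). FPKM times union exon length gave whole reads for 96.2% to 96.5% of low values (tolerance 0.02), hence the depths. Replicates differed beyond sampling noise (chi-square per degree of freedom 6.31 to 17.7).

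Groups were compared on log2(FPKM + 1) by limma 3.58.1 under R 4.3.3, letting the variance follow the mean, over 12912 genes averaging 0.5 FPKM or more, Benjamini-Hochberg 0.05; the model was tested on simulated data. Promoters are RefSeq, GRCh38.p14. The members, lists and tests were chosen with earlier results of these data known. All 38 genes are named, and from each related list up to 3 genes with the smallest p. Alternatives covered the pseudocount, filter, scaling, variance trend, voom on recovered reads, the replicate number as a block and each library left out.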

Additional observations from a re-analysis of the deposited data

How the results depend on the processing

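The count of lower mitotic genes was 30 and stayed between 27 and 31 under the 17 alternatives, with 0 higher in each and a median log2 fold change between -0.35 and -0.30; 26 of the 30 kept their call under every alternative that tested them. Beside the libraries named above, KIF11 (adjusted p 0.0571) and NUSAP1 (0.0781) lost it on the TPM scale, NUSAP1 (0.0566) on recovered reads, and KIF11 (0.0675), KIF20B (0.0557) and MKI67 (0.115) with no filter; CCNA2 passed (0.0493) with median-of-ratios scaling. The count of all genes called was between 3290 and 5037, against 4584. On the TPM scale 1 centromere gene was higher and 2 CHR and CCAAT regulators lower. A filter of 5 FPKM tested fewer genes and left 4 further mitotic kinesins lower and 0 transport kinesins lower. With no filter, 0 transport kinesins were lower and 2 higher, and 2 regulators were lower and 1 higher. On recovered reads 5 regulators were higher. Replicate numbers did not pair the libraries: correlations of same-numbered libraries were -0.062, 0.241 and 0.054, and mimic replicate 1 correlated best with scramble replicate 3 (0.230). With the replicate number as a block, 31 mitotic genes were lower (CENPF adjusted p 0.00655) and 4609 genes were called in all, with 1 centromere gene and 4 entry regulators higher.

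Leaving out 1 library gave ranges of 27 to 30 lower mitotic genes; 0 to 1 lower and 2 to 3 higher transport kinesins; 1 to 4 lower and 0 to 2 higher regulators; 0 to 1 higher condensin and cohesin genes; 0 to 1 higher centromere genes; and 7 to 10 lower entry regulators. The cause of these changes was not tested. Depth gave at least 747 recovered reads for each mitotic gene in each library.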

Other observations

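Condensin and cohesin, the ring complexes that compact chromosomes and hold sister chromatids together, were read as a list of 20 tested genes. With mimic 7 were lower and 1 higher, against 16.8% and 18.7% of all tested genes, with a median log2 fold change of -0.13. Voom on recovered reads called 9 lower and 1 higher, against 18.2% and 21.0% of the genes it tested. RAD21, the cohesin subunit cut by separase at anaphase, was at 17.5, 17.8 and 17.3 FPKM with mimic and at 26.1, 26.4 and 25.6 FPKM with scramble (log2 fold change -0.55 ± 0.036 SE, adjusted p 4.65e-05). NCAPD2, a condensin I subunit, was at 33.3, 37.0 and 35.6 FPKM with mimic and at 52.6, 53.8 and 50.5 FPKM with scramble (log2 fold change -0.55 ± 0.049 SE). NCAPH, which closes the condensin I ring, went from 28.5 ± 0.406 to 22.5 ± 1.06 FPKM (log2 fold change -0.33). The gene called higher, named after its values were seen, was MAU2, a partner of the cohesin loader NIPBL, at 9.12 FPKM with mimic and 8.03 FPKM with scramble (log2 fold change 0.16, adjusted p 0.0259). Its call was lost without mimic replicate 2 or 3 or any 1 of the scramble libraries.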
